A study of Mus musculus with 21 samples.

Results

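The ileum was compared with the colon in 1,25D3-treated transgenic mice, with 3 libraries of each tissue, 6 of the 21 samples of the series. Libraries were chosen by the tissue and treatment in their labels, and the genes were those shared by symbol between the tables of both tissues with a mean of at least 1 FPKM (fragments scaled to transcript length and to the mapped total of the library) over the 6 libraries, 12450 in all. The mice of both tissues were male, 9 weeks old and on the C57BL6J background. They lacked endogenous VDR (the vitamin D receptor); a CDX2-driven human VDR transgene is, by the labels, expressed in the distal intestine only. All received 3 injections of 1,25-dihydroxyvitamin D3 (1,25D3, the active hormone) at 1 ng per g of body weight, timed 48, 24 and 6 h ahead of the endpoint. These groups had no injected control with a wild-type receptor, and whether the labelled ileum and colon samples came from the same animals is not given. Set beside them were 7 libraries of uninjected transgenic mice of the same genotype (9 to 10 weeks old, of both sexes) and 8 of Villin-CreERT2 VDR f/f mice, called KO (untreated males, 9 to 11 weeks old), in which a tamoxifen-inducible Cre under the villin promoter acts in the intestinal epithelium. Between treated and KO mice, genotype and treatment cannot be told apart, and the uninjected mice differ in sex and age as well.

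The ileum, the last stretch of the small intestine, is lined by villi whose enterocytes take up bile acids, fats, sugars and amino acids, and its crypts hold Paneth cells that secrete antimicrobial peptides. The colon has no villi and few or no Paneth cells, and its surface cells absorb water and salts, take up short-chain fatty acids and carry a thick mucus layer. VDR is a nuclear receptor that pairs with RXR on DNA after binding 1,25D3; its best known targets in the gut are genes of transcellular calcium uptake (the channel Trpv6, the calcium-binding protein S100g, the pump Atp2b1) and Cyp24a1, which breaks the hormone down.

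In treated mice Trpv6 was 131-fold and S100g 14.6-fold lower in the ileum than in the colon, while Cyp24a1 did not pass the test. Of all genes tested 2.78% were called higher and 1.43% lower in the ileum. Of 22 tested alpha-defensin symbols of Paneth cells 21 were higher in the ileum, as were 13 of 19 genes of fat uptake and 10 of 11 of sugar uptake. Without Ileum library 2 the counts for fat and sugar uptake became 10 and 7. Lower in the ileum were 8 of 22 ion and water transport genes of colonocytes and 8 of 27 Hox genes, while 2 Hox genes were higher; both counts of 8 became 4 without Ileum library 2.

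The promoters of 4 genes called in the contrast are shown first, as windows from 250 bases before to 50 bases after the annotated start (RefSeq, GRCm38.p6). They are not the 4 largest differences. Trpv6 and S100g belong to the qPCR panel, and S100g (log2 difference -3.87) is outside the 15 largest falls. Car1, with the largest fall (-7.20), is not shown. In Defa22, the alpha-defensin with the largest difference among those the promoter table holds, capitals mark CTTTGAT or its complement ATCAAAG, letters found in sites of the Wnt effectors TCF. In Trpv6 and S100g, capitals mark AGGTCA or TGACCT, the hexamer that nuclear receptors of the VDR and RXR kind bind in pairs. In Cyp2c55, the P450 most lowered in the ileum, capitals mark TTTAT or ATAAA, core letters of CDX sites.
Defa22 (chr8:21162027-21162326, plus strand): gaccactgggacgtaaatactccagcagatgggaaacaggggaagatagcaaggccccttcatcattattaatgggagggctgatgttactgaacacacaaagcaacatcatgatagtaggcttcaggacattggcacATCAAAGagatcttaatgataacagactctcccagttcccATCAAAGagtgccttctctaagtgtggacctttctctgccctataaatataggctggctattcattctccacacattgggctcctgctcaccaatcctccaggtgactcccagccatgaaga
Trpv6 (chr6:41636356-41636655, minus strand): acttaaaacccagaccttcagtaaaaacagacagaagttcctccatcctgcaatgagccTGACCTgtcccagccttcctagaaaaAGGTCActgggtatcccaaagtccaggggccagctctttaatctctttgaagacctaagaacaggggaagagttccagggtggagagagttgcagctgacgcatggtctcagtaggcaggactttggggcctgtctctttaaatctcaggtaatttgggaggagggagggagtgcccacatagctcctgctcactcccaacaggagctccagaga
S100g (chrX:162964550-162964849, minus strand): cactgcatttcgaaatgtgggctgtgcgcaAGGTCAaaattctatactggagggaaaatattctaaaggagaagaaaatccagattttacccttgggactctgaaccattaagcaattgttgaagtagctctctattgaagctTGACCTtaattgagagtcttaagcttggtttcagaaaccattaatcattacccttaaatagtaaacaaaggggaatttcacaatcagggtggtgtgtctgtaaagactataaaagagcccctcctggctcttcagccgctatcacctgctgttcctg
Cyp2c55 (chr19:39006769-39007068, plus strand): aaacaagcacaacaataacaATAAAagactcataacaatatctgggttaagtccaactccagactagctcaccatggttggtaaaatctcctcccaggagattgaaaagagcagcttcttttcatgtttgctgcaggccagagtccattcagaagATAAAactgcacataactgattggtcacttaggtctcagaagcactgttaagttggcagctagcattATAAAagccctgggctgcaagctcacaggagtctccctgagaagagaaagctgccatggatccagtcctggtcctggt
The Defa22 window held the TCF letters at 2 places, 112 and 72 bases before the start, against 3.73% of the 32544 distinct promoter windows of the table with any match on either strand. The window of Defa21 was identical to that of Defa22 over all 300 bases, and that of Defa20 differed from it at 7. Trpv6 and S100g each held the AGGTCA letters at 2 places, where 16.2% of windows hold them at least once. They began 191 and 165 bases before the start in Trpv6 and 220 and 107 in S100g. In neither gene did the 2 matches lie on the same strand. Cyp2c55 held TTTAT letters at 3 places (39.9% of windows hold any), the last of them inside a TATAAA. These matches describe letters only.

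Depth estimated from reads recovered out of the FPKM steps was 28.5 to 36.6 M reads (megareads) in the ileum libraries and 16.6 to 47.9 M reads in the colon libraries, with 16117 to 16458 and 16278 to 16837 genes above 0. Libraries are named by the number in their column, 1, 2 and 4 in each tissue, and values below follow that order. Ileum library 1 stood apart in base composition: its log2 values rose by 1.05 per 10 percentage points of GC content relative to the mean of the 6 libraries, while the slopes of the other 5 lay between -0.52 and 0.07. Colon library 4 stood apart in pancreatic acinar transcripts, summed to 24037 FPKM over 20 genes, against 633.5 to 1122 FPKM in the ileum libraries and 128 and 333 FPKM in the other colon libraries. The labelled tissue is intestinal epithelium. Of 12 epithelial genes tested 1 rose in the ileum (Vil1, the villin of the brush border, log2 difference 2.19, SE 0.38, adjusted p = 0.0136, a call lost without Ileum library 2, Colon library 2 or Colon library 4), and Epcam, an epithelial adhesion protein, read 815, 1626 and 1342 FPKM in ileum and 1092, 587 and 979 FPKM in colon libraries. Smooth muscle transcripts were present in both tissues: of 12 genes none passed, and Acta2, smooth muscle actin, read 484, 256 and 137 FPKM in ileum and 288, 176 and 246 FPKM in colon libraries. Mouse Vdr, the targeted gene, read 14.8, 20.5 and 24.6 FPKM in ileum and 36.6, 18.6 and 29.3 FPKM in colon libraries of treated mice, with overlapping groups; a level per gene does not resolve a deleted exon, so it checks no label.

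Across all genes 524 passed limma's test (adjusted p under 0.05), 4.21% of those tested: 346 were higher in the ileum (2.78%) and 178 lower (1.43%). A difference of at least 4-fold as well was reached by 294 higher (2.36%) and 154 lower genes (1.24%). The 2 tissues' libraries did not overlap for 1375 genes higher in the ileum (11%) and 1011 lower (8.12%), so lack of overlap alone is common here. A gene averaging under 1 FPKM in 1 tissue met the filter only through the other tissue, which fixed which mean was higher. The median difference over all genes tested was -0.04 on the log2 scale. On FPKM as deposited, without rescaling, 272 genes were higher and 243 lower and the median was -0.29, so the split between directions depends on the scaling. Values are FPKM rescaled for depth, and fold changes and log2 differences are on the log2(FPKM + 0.5) scale, ileum minus colon, which understates changes of low genes. Without Ileum library 2 the count was 237, and without either of Colon libraries 1 and 2 it was 333 and 325.

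**Figure D1:**
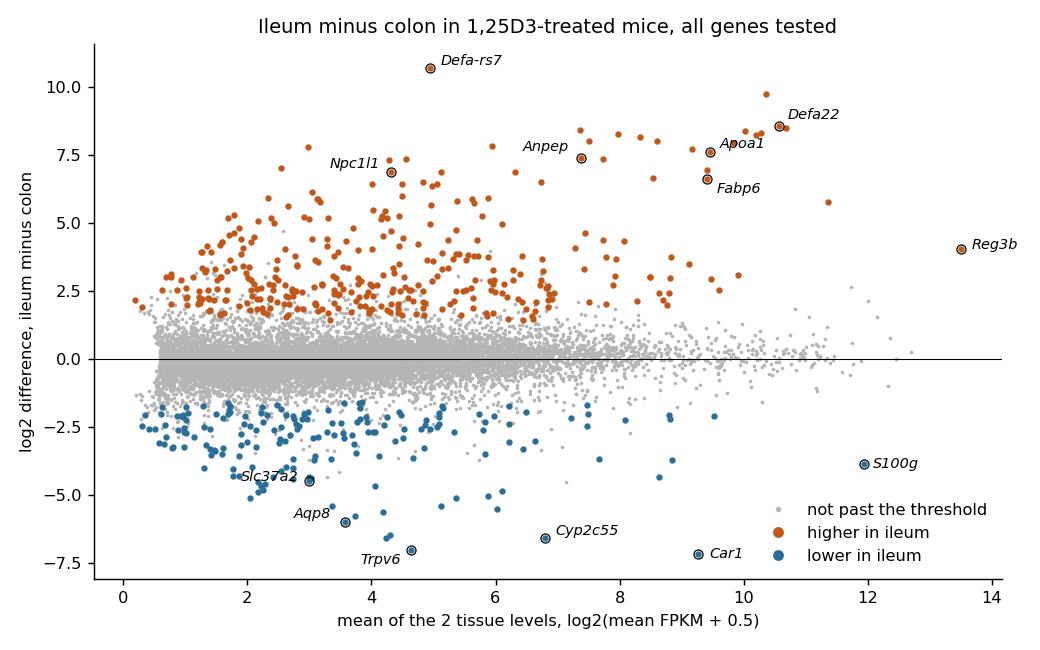
Each point is 1 of the 12450 genes tested; the horizontal axis is the mean of the tissue levels and the vertical axis the log2 difference, ileum minus colon. The 346 genes higher in the ileum reach a log2 difference of 10.70 (Defa-rs7), and the 178 lower ones reach -7.20 (Car1) and -7.04 (Trpv6).

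Of 5 tested genes from the qPCR panel named in the protocol, 3 were lower in the ileum, none was higher, and the median log2 difference was -3.87. Trpv6, the apical channel through which calcium enters enterocytes (6:41570620-41586404, mm9), read 1.18, 0.632 and 3.64 FPKM in the ileum libraries and 212, 348 and 242 FPKM in the colon libraries. The groups were far apart (log2 difference -7.04, SE 0.50, adjusted p = 0.000215; 131-fold lower in ileum). S100g, the cytosolic calbindin that ferries calcium across the cell, read 468, 993 and 1677 FPKM in ileum and 11891, 23944 and 8618 FPKM in colon libraries. It was abundant in both tissues, and the groups did not overlap (log2 difference -3.87, SE 0.58, adjusted p = 0.00691). Atp2b1, the basolateral calcium pump, read 10.8, 45.1 and 68.9 FPKM in ileum and 110.0, 86.9 and 134 FPKM in colon libraries. Its groups did not overlap, but it did not pass (log2 difference -1.73, SE 0.63, adjusted p = 0.245). Ileum library 1, the one with the steep GC slope, was the lowest ileum library for S100g, Atp2b1, Slc30a10, Cyp24a1 and Vdr. After removal of the GC and length trend of every library, the log2 difference of S100g was -3.94, that of Cyp24a1 was -0.50 (adjusted p = 0.705), that of Slc30a10 was -2.16 (adjusted p = 0.12), that of Vdr was -0.47 (adjusted p = 0.466), and that of Atp2b1 was -1.41 and passed (adjusted p = 0.0285). Of 7 calcium transport genes tested 2 fell, Trpv6 and S100g, all 7 differences lay below 0, and the median was -1.18.

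Slc37a2, a sugar-phosphate exchanger of the endoplasmic reticulum, read 1.84, 0.544 and 1.2 FPKM in ileum and 29.9, 50.03 and 31.6 FPKM in colon libraries (log2 difference -4.51, SE 0.42, adjusted p = 0.000622). Slc30a10, a manganese exporter, read 5.11, 12.5 and 62.7 FPKM in ileum and 103, 40.3 and 131 FPKM in colon libraries. Its groups overlapped through Ileum library 4 and it did not pass (log2 difference -2.30, SE 0.84, adjusted p = 0.245), though it did in 4 of 19 alternatives, with -3.26 without Ileum library 4 (adjusted p = 0.0148). Cyp24a1 read 4.74, 13.5 and 21.2 FPKM in ileum and 27.8, 20.6 and 8.12 FPKM in colon libraries, with overlapping groups (log2 difference -0.56, SE 0.62, adjusted p = 0.826). The 95% interval of its log2 difference ran from -1.98 to 0.86, so neither direction is left out. Trpv5, the renal relative of Trpv6, was listed at 0 in the 3 ileum libraries and at 0.614, 0.177 and 0.616 FPKM in the colon libraries, under the level filter. In the exact two-sided permutation test of mean FPKM, Trpv6, S100g, Slc37a2 and Trpv5 reached p = 0.1, the smallest that 3 against 3 allows, while Slc30a10 had p = 0.2, Vdr p = 0.3 and Cyp24a1 p = 0.5. Of 9 tested genes of the receptor and its partners none passed; RXR alpha (Rxra), the partner of VDR, had a log2 difference of 0.48 (SE 0.43).

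**Figure D2:**
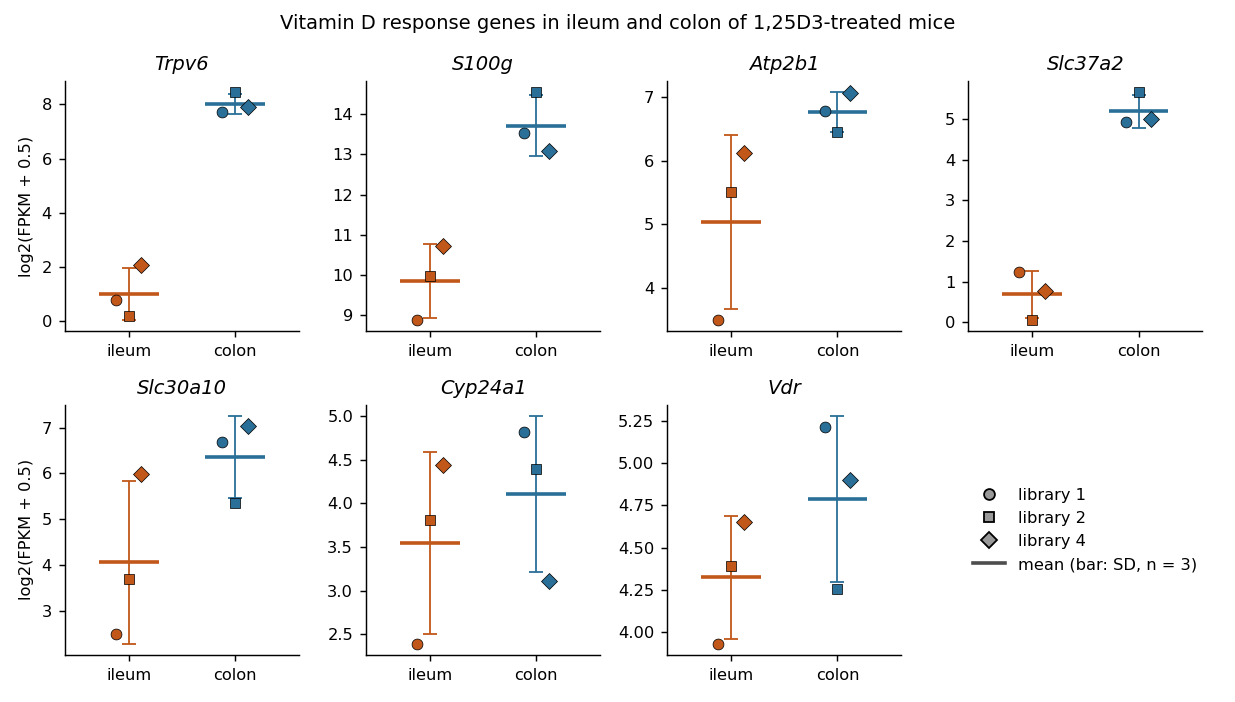
Levels in log2(FPKM + 0.5) of 7 genes in the 3 ileum and 3 colon libraries of treated mice; symbols mark the library number, horizontal lines the mean and bars the SD (n = 3). Trpv6, S100g and Slc37a2 separate with a gap between the tissues, whereas Cyp24a1 and Vdr overlap.

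Other mineral transporters moved both ways. Of 5 phosphate transport genes 1 rose and 1 fell. Slc34a2, the apical sodium-phosphate cotransporter of the gut, read 139, 191 and 153 FPKM in ileum and 20.4, 30.4 and 15.4 FPKM in colon libraries (log2 difference 2.88, SE 0.36, adjusted p = 0.00301). Slc20a1, a sodium-phosphate cotransporter of most cells, read 5.29, 4.21 and 6.6 FPKM in ileum and 24.4, 18.7 and 51.0 FPKM in colon libraries (log2 difference -2.33, SE 0.43, adjusted p = 0.0198), the opposite direction, a call lost without any 1 of Ileum libraries 1 and 2 and Colon libraries 1 and 4. Trpm6, the apical magnesium channel, was the 1 of 8 magnesium genes to pass and fell to 0.625, 2.15 and 3.1 FPKM in ileum libraries, against 11.0, 7.43 and 21.5 FPKM in colon libraries (log2 difference -2.52, SE 0.55, adjusted p = 0.0408). That call was lost in 8 of 19 alternatives, among them 5 of the 6 that leave out 1 library. Of 19 genes of zinc, manganese, iron and copper only Slc30a2, a vesicular zinc transporter used by secretory cells, rose (15.9, 13.5 and 20.2 FPKM in ileum and 0.2995, 0 and 0.301 FPKM in colon libraries; log2 difference 4.62, SE 0.38, adjusted p = 0.000347). Claudins and other tight junction genes, 17 in number, gave no call. Cldn8, a claudin of the distal colon, came nearest, with 0.509, 0.938 and 6.01 FPKM in ileum and 9.64, 14.2 and 68.9 FPKM in colon libraries (log2 difference -3.36, SE 0.87, adjusted p = 0.0788), and Cldn15, a claudin that forms sodium pores, read 472, 287 and 179.9 FPKM in ileum and 155, 101 and 113 FPKM in colon libraries (adjusted p = 0.202).

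The largest differences belonged to Paneth cells. Of 16 tested genes of the Paneth list 15 rose in the ileum and 1 fell, with a median log2 difference of 7.90. Taking all symbols of the alpha-defensin family in the tables, 25 in number, 22 were tested, 21 rose and none fell, with log2 differences from 1.58 to 10.70; the 22 with mm9 coordinates all lie on chromosome 8 between 22165224 and 22806325. Their summed FPKM was 190127, 225221 and 87330 in the ileum libraries, which is 16.9, 22.3 and 11.7% of all FPKM, and 123, 1064 and 853 in the colon libraries, at most 0.153%. Defa-rs7 (Defa31 in RefSeq) read 1198, 1933 and 722 FPKM in ileum and 0, 0.386 and 0.328 FPKM in colon libraries (log2 difference 10.70, SE 0.44, adjusted p = 5.02e-05), the largest difference among the named genes. Defa22 read 30889, 35493 and 12657 FPKM in ileum and 16.7, 125.1 and 119 FPKM in colon libraries (log2 difference 8.56, SE 0.79, adjusted p = 0.000622), and Defa21, with the identical promoter window, 33989, 37618 and 12806 and 17.9, 137 and 131 FPKM. Neither tissue's libraries approached the other's. Copies of this cluster are nearly identical, so reads may be shared or split between them and single members are uncertain. Colon library 1 was the lowest colon library for the 9 members of the Paneth list that carry a defensin symbol, as for Defa17 (15582, 24726 and 10049 FPKM in the ileum libraries and 11.5, 94.2 and 86.3 FPKM in the colon libraries).

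Paneth genes outside that cluster followed. Lyz1, the Paneth cell lysozyme, read 6368, 10132 and 5899 FPKM in ileum and 35.4, 71.3 and 78.9 FPKM in colon libraries (log2 difference 6.94, SE 0.43, adjusted p = 0.000146). Mmp7, the protease that matures the defensins, read 425, 303 and 406 FPKM in ileum and 5.4, 5.08 and 7.14 FPKM in colon libraries (log2 difference 5.89, SE 0.33, adjusted p = 0.000146), with little spread in either tissue. Nupr1, a small stress-induced chromatin protein, was the member that fell (log2 difference -2.26, SE 0.39, adjusted p = 0.014); it is named as the exception, after its values were seen, and lost its call without Colon library 1. Among 17 tested Reg lectins and antimicrobial genes 4 rose and 1 fell. Reg3b and Reg3g, secreted lectins that bind bacteria, read 37918, 28870.3 and 51859.8 FPKM and 15549.6, 12389 and 29196 FPKM in ileum libraries, and 6951, 717 and 2435 FPKM and 539, 153 and 398 FPKM in colon libraries. Both rose (log2 4.06 with adjusted p = 0.0195, and log2 5.79 with adjusted p = 0.000729), and Reg3b lost its call without Ileum library 1 or 2. Nos2, inducible nitric oxide synthase (log2 difference 4.80, SE 0.87, adjusted p = 0.0172), and Duoxa2, the maturation factor of the peroxide-producing oxidase Duox2 (log2 difference 3.14, SE 0.54, adjusted p = 0.0133), rose too. The 4 higher calls became 2 without Ileum library 1, Ileum library 2 or Colon library 2.

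Fat handling stood on the side of the ileum: of 19 genes tested 13 rose in the ileum, none fell, and the median log2 difference was 3.66. With 1 library left out, 10 to 13 rose and none fell. Apoa1, the main protein of high-density lipoprotein, read 15391, 8978 and 5786 FPKM in ileum and 31.8, 68.7 and 46.2 FPKM in colon libraries (log2 difference 7.62, SE 0.47, adjusted p = 0.000146). Mttp, which loads lipid onto nascent lipoproteins, read 252, 335 and 218 FPKM in ileum and 1.32, 2.93 and 3.26 FPKM in colon libraries (log2 difference 6.53, SE 0.39, adjusted p = 0.000146). Npc1l1, the sterol uptake protein of the brush border, read 304, 214 and 140.1 FPKM in ileum and 0.702, 1.81 and 1.45 FPKM in colon libraries (log2 difference 6.90, SE 0.42, adjusted p = 0.000146). For these 3 genes the lowest ileum library lay far above the highest colon library. Mogat2, which rebuilds triglyceride (log2 difference 5.67, SE 0.46, adjusted p = 0.000338), and Abcg5, a subunit of the sterol efflux pump (log2 difference 5.20, SE 0.60, adjusted p = 0.00194), rose as well.

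Of 17 brush-border hydrolases tested 12 rose and none fell, with all 17 differences above 0 and a median of 4.63. Leaving out 1 library gave 9 to 13 that rose. Anpep, aminopeptidase N, read 2658, 2014 and 1523 FPKM in ileum and 5.41, 19.3 and 13.9 FPKM in colon libraries (log2 difference 7.40, SE 0.49, adjusted p = 0.000207). Xpnpep2, a proline-cleaving aminopeptidase, read 122, 126 and 85.0 FPKM in ileum and 2.88, 1.75 and 2.6 FPKM in colon libraries (log2 difference 5.26, SE 0.34, adjusted p = 0.000200). Treh, which splits trehalose (log2 difference 5.89, SE 0.46, adjusted p = 0.000317), Naaladl1, a dipeptidase (log2 difference 4.63, SE 0.35, adjusted p = 0.000256), and Enpep, aminopeptidase A (log2 difference 5.26, SE 0.57, adjusted p = 0.00147), rose too.

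Sugar uptake gave 10 of 11 genes higher in the ileum and none lower, with a median of 4.16. The higher count lay between 7 and 10 with 1 library left out. Slc5a1, the sodium-glucose cotransporter, read 561, 687 and 576 FPKM in ileum and 47.9, 18.6 and 50.4 FPKM in colon libraries (log2 difference 4.07, SE 0.44, adjusted p = 0.00144). Slc2a5, the fructose transporter, read 50.7, 45.1 and 27.4 FPKM in ileum and 1.86, 1.23 and 2.29 FPKM in colon libraries (log2 difference 4.16, SE 0.38, adjusted p = 0.000615), and Slc2a2, the basolateral hexose transporter, read 11.2, 24.7 and 11.6 FPKM in the ileum libraries and at most 0.179 FPKM in the colon libraries (log2 difference 4.55, SE 0.41, adjusted p = 0.000594). Of 14 genes of peptide and amino acid absorption 9 rose and none fell, with a median of 2.81. Between 6 and 10 rose with 1 library left out, and at most 1 fell. Slc6a19, the carrier of neutral amino acids in the brush border, read 138, 129 and 154 FPKM in ileum and 0.265, 1.86 and 1.88 FPKM in colon libraries (log2 difference 6.44, SE 0.48, adjusted p = 0.000246). Slc43a2, a basolateral amino acid transporter (log2 difference 4.52, SE 0.34, adjusted p = 0.000246), and Slc7a9, the cystine carrier (log2 difference 4.39, SE 0.44, adjusted p = 0.000909), also rose.

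Bile acid handling is the hallmark of the ileum. Its list, which also holds Amn of vitamin B12 uptake, gave 5 of 12 genes higher and none lower, with a median of 2.71. Fabp6, the ileal bile acid-binding protein, read 4319.7, 7179.7 and 8625 FPKM in ileum and 37.9, 90.7 and 78.6 FPKM in colon libraries (log2 difference 6.63, SE 0.45, adjusted p = 0.000207). The subunits of the basolateral bile acid exporter were both expressed in the colon at lower levels: Osta read 643, 586 and 521 FPKM in ileum and 223, 37.1 and 41.3 FPKM in colon libraries (log2 difference 3.04, SE 0.65, adjusted p = 0.036), and Ostb 684, 883 and 1459 and 301, 118 and 164 FPKM (log2 difference 2.41, SE 0.46, adjusted p = 0.0229). The call of Osta was lost in 8 of 19 alternatives and that of Ostb in 5. Abcc2, an apical pump of organic anions (log2 difference 3.35, SE 0.44, adjusted p = 0.00391), and Amn, a part of the receptor for the vitamin B12 carrier (log2 difference 3.77, SE 0.79, adjusted p = 0.0334), rose too, the call of Amn being lost in 6 alternatives. The 5 calls of the list, Amn among them, became 2 without Ileum library 2, Colon library 2 or Colon library 4.

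**Figure D3:**
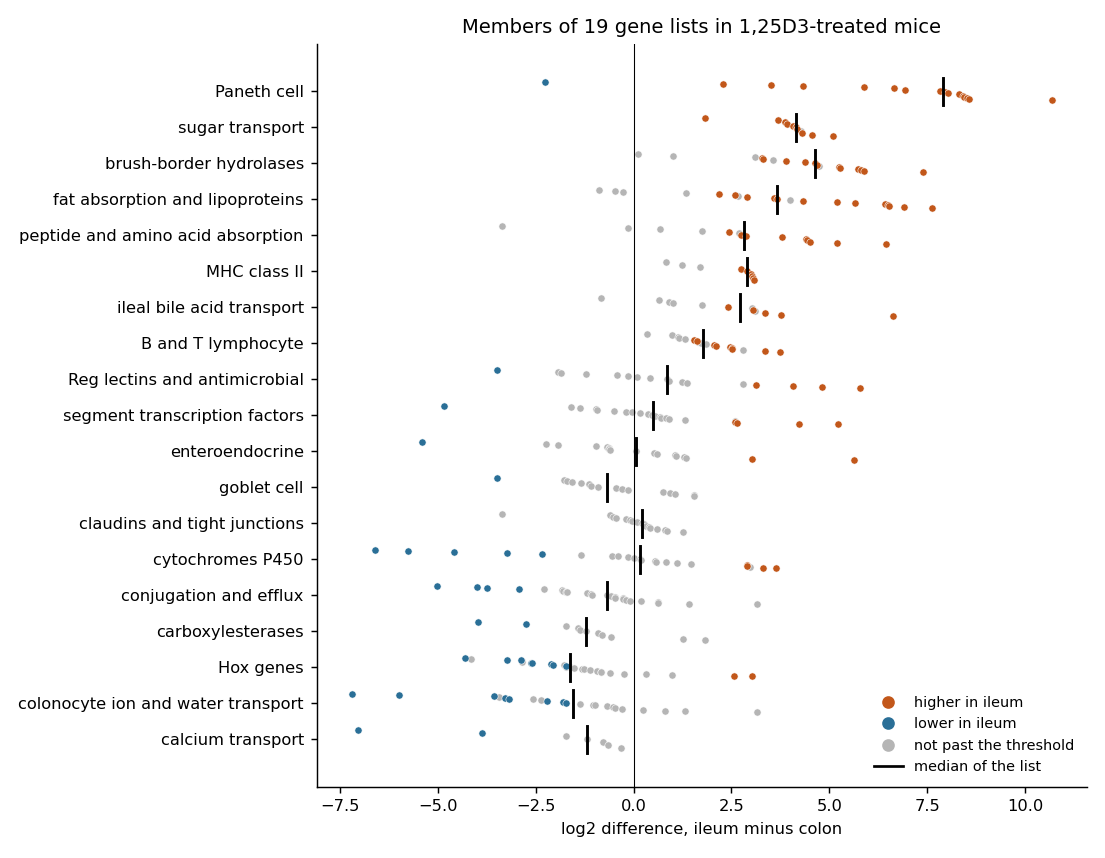
Log2 differences, ileum minus colon, of the tested members of 19 gene lists; each point is a gene, coloured where it passed, and the black line is the median of the list. Paneth, hydrolase, sugar and fat lists lie to the right (medians 7.90, 4.63, 4.16 and 3.66), and the Hox and colonocyte transport lists to the left (-1.63 and -1.54).

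Ion and water transport of colonocytes ran the other way: of 22 genes tested 8 fell in the ileum, none rose, and the median was -1.54. Car1, a cytosolic carbonic anhydrase that is abundant in colon epithelium, read 45.3, 10.8 and 117 FPKM in ileum and 11025, 3566 and 4961 FPKM in colon libraries (log2 difference -7.20, SE 0.81, adjusted p = 0.00175). Aqp8, a water channel, read 0.903, 0.0465 and 1.74 FPKM in ileum and 31.0, 198 and 70.8 FPKM in colon libraries (log2 difference -6.00, SE 0.73, adjusted p = 0.00262). Scnn1b, a subunit of the epithelial sodium channel, read 0, 0.024 and 0.101 FPKM in ileum and 4.74, 3.27 and 6.9 FPKM in colon libraries (log2 difference -3.29, SE 0.41, adjusted p = 0.00278). In these 3 genes no ileum library reached the lowest colon library, though the colon libraries also differed among themselves. Car2, a second carbonic anhydrase (log2 difference -3.17, SE 0.51, adjusted p = 0.0102), and Best2, a chloride and bicarbonate channel (log2 difference -3.56, SE 0.62, adjusted p = 0.0145), fell too. Aqp8, Scnn1b, Car2 and Best2 averaged 0.896, 0.0418, 0.658 and 0.198 FPKM in ileum libraries. These genes reached the filter of 1 FPKM through the colon alone, which fixed their direction. The lean of this list is therefore not independent of the filter. The 8 calls became 4 without Ileum library 2 and 5 without Colon library 2 or 4, and that of Best2 was lost without Ileum library 1 or 2 or Colon library 2.

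Genes of drug and steroid metabolism split between the tissues. Of 22 cytochromes P450 tested 4 rose and 5 fell. Cyp2c55, an enzyme that oxidises arachidonic acid, read 6.49, 6.09 and 21.6 FPKM in ileum and 1286, 639.9 and 1154 FPKM in colon libraries (log2 difference -6.61, SE 0.53, adjusted p = 0.000338). The Cyp2d family members Cyp2d9, Cyp2d10 and Cyp2d34 fell (log2 -3.24, -4.59 and -5.77; adjusted p = 0.00361, 0.000623 and 0.000336); they are close copies on chromosome 15 between which reads may be shared. Cyp4f14, a fatty acid hydroxylase, rose (log2 difference 2.90, SE 0.40, adjusted p = 0.00496), and the 4 higher calls became 2 without Ileum library 2 or Colon library 2. Of 25 conjugation and efflux genes 4 fell and none rose. Sult1a1, a phenol sulfotransferase, read 4.32, 9.74 and 16.9 FPKM in ileum and 419, 245 and 292 FPKM in colon libraries (log2 difference -5.03, SE 0.50, adjusted p = 0.000846), and Sult1c2, a relative, fell as well (log2 difference -3.74, SE 0.42, adjusted p = 0.00167). Ugt1a6a, a glucuronosyltransferase (log2 difference -4.00, SE 0.55, adjusted p = 0.00487), shares exons with the other Ugt1a genes, so its reads are uncertain. Of 11 carboxylesterases 2 fell, Ces1g (log2 difference -3.97, SE 0.47, adjusted p = 0.00234) and Ces2b (log2 difference -2.75, SE 0.55, adjusted p = 0.0269), and none rose. That of Ces2b was lost without Ileum library 1 or 2 or Colon library 1.

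Further genes lower in the ileum came from the 15 with the largest falls. Hao2, a peroxisomal hydroxyacid oxidase, read 0.662, 0.715 and 3.14 FPKM in ileum and 162, 119.5 and 242 FPKM in colon libraries (log2 difference -6.60, SE 0.51, adjusted p = 0.000317). Nov (Ccn3), a secreted matrix-associated protein, read 0.51, 0.884 and 3.78 FPKM in ileum and 200.1, 90.5 and 232 FPKM in colon libraries (log2 difference -6.48, SE 0.60, adjusted p = 0.000623). St6galnac6, a sialyltransferase, read 9.05, 4.43 and 6.3 FPKM in ileum and 229.6, 259 and 226 FPKM in colon libraries (log2 difference -5.12, SE 0.35, adjusted p = 0.000207). The symbol 1110032A04Rik (Sptssb, a subunit of the serine palmitoyltransferase of sphingolipid synthesis) had log2 difference -5.65, SE 0.47, adjusted p = 0.000382, Wfdc2, a secreted antiprotease, had log2 difference -5.43, SE 0.51, adjusted p = 0.000626, and Lpo, lactoperoxidase, had log2 difference -5.13, SE 0.57, adjusted p = 0.00163. Sycn, a protein of pancreatic zymogen granules, read 2.27, 3.51 and 19.9 FPKM in ileum and 59.1, 413 and 927 FPKM in colon libraries (log2 difference -5.54, SE 1.05, adjusted p = 0.0215). Its highest value lay in Colon library 4, the library with the highest acinar sum. Without that library the log2 difference was -4.68 (adjusted p = 0.0295), and the call was lost without Ileum library 1 or 2 or Colon library 2. Sycn was also lower in the ileum of the other mice, each kind fitted alone. Limma gave -7.72 in KO mice (adjusted p = 7.33e-06) and -7.73 in uninjected mice (adjusted p = 0.00428). The colon libraries of uninjected mice read 776, 1046, 3729 and 177 FPKM. Of 19 acinar genes tested in treated mice none passed. When Colon library 4 of treated mice was left out, 2 of 17 passed as higher in the ileum. These were Pnliprp2, a pancreatic lipase relative (log2 difference 4.46, adjusted p = 0.00269), and Clps, colipase (log2 difference 2.96, adjusted p = 0.0264). Both are named after their values were seen.

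Hox genes, which set position along the body axis, were mostly lower in the ileum: of 27 tested 8 fell and 2 rose, 23 differences lay below 0, and the median was -1.63. Both that rose belong to the Hoxc cluster. Hoxc6 read 5.63, 7.05 and 4.57 FPKM in ileum and 0.454, 0.793 and 0.44 FPKM in colon libraries (log2 difference 2.55, SE 0.37, adjusted p = 0.00592), and Hoxc8 6.32, 9.99 and 6.92 and 0.263, 1.25 and 0.233 FPKM (log2 difference 3.03, SE 0.45, adjusted p = 0.00713). In the Hoxa cluster the fallers were Hoxa3, Hoxa7, Hoxa9, Hoxa10 and Hoxa11, with log2 differences of -2.05, -2.61, -2.87, -4.30 and -3.23. Hoxa10 read 0.147, 0.272 and 0.363 FPKM in ileum and 5.63, 19.4 and 26.4 FPKM in colon libraries (log2 difference -4.30, SE 0.56, adjusted p = 0.00361). Hoxa11as, listed on the strand opposite Hoxa11, also fell (log2 difference -4.91, SE 0.84, adjusted p = 0.0133), a call lost in 4 of 18 alternatives; whether counting used the strand is not given in the sources used here, so reads of the pair cannot be told apart. In the Hoxd cluster Hoxd4, Hoxd9 and Hoxd10 fell (log2 -2.10, -1.73 and -2.58). No Hoxb gene passed. The 8 lower calls became 4 without Ileum library 2 and 5 without Ileum library 1 or 4 or Colon library 2 or 4, and both higher calls were lost without Ileum library 2. Hoxd9 lost its call without any 1 of the 6 libraries, Hoxd4 in 8 of 18 alternatives, Hoxd10 in 9 of 17 and Hoxa3 in 7 of 18. In the settings that keep all 6 libraries or leave out both numbered 4, the lower count ran between 2 (mean of at least 5 FPKM, 12 genes tested) and 15 (all 14 libraries in 1 fit, 28 tested). With no filter on low values 36 were tested, 4 fell and 2 rose. Hoxa9, Hoxa10 and Hoxa11 averaged 0.0922, 0.261 and 0.0471 FPKM in ileum libraries. They met the filter of 1 FPKM only through the colon, which fixed their direction, so the lean of the list is not independent of the filter. Hoxc6, 1 of the 2 that rose, averaged 0.562 FPKM in colon libraries and met the filter only through the ileum.

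The most posterior members depended on the library. Hoxb13 read 0.149, 0.102 and 2.99 FPKM in ileum and 0.103, 84.2 and 151 FPKM in colon libraries, and Hoxd13 0, 0 and 0.0739 and 0.0395, 2.05 and 38.3 FPKM. Colon library 1 therefore lay at the ileum level for both, while Colon libraries 2 and 4 were far above it. Hoxa13 showed the same order, with at most 0.151 FPKM in the ileum libraries and 0.753, 3.11 and 13.3 FPKM in the colon libraries. None of the 3 passed (adjusted p = 0.388, 0.398 and 0.0958). Where along the colon each sample was taken is not given. Atp12a, a proton-potassium pump chosen after its values were seen, read 0.0155, 0 and 0.64 FPKM in ileum and 0.152, 7.78 and 70.2 FPKM in colon libraries. Insl5, a hormone of colonic endocrine cells, read 0, 0 and 3.14 FPKM in ileum and 8.95, 50.5 and 143 FPKM in colon libraries, with the same order of colon libraries. Of 17 tested enteroendocrine genes Insl5 fell (log2 difference -5.40, SE 1.07, adjusted p = 0.026) and 2 rose, Gip, the incretin of the upper gut (log2 difference 5.63, SE 0.82, adjusted p = 0.00612), and Ghrl, ghrelin (log2 difference 3.02, SE 0.40, adjusted p = 0.00395). The call of Insl5 was lost without Ileum library 1 or 2 or Colon library 2.

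**Figure D4:**
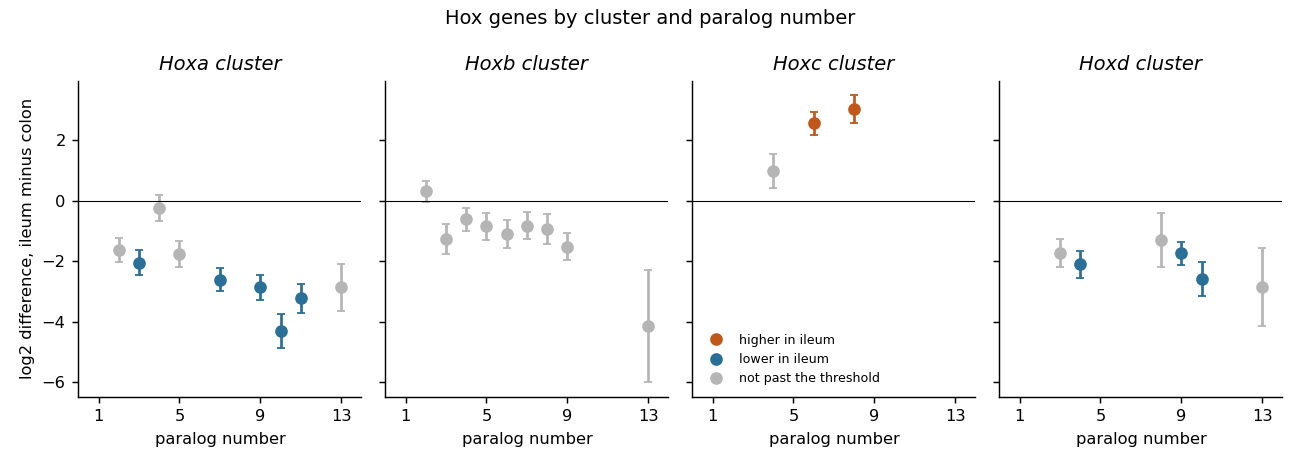
Log2 difference, ileum minus colon, against paralog number for the tested genes of each Hox cluster, with SE bars. Hoxc6 and Hoxc8 lie at 2.55 and 3.03, whereas Hoxa members 7 to 11 lie between -4.30 and -2.61. The SE of Hoxb13 is 1.85.

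Among 22 tested transcription factors of gut segments 4 rose and 1 fell. Gata5, a zinc finger factor of the small intestine, read 67.3, 34.7 and 38.1 FPKM in ileum and 0.659, 0.684 and 0.779 FPKM in colon libraries (log2 difference 5.23, SE 0.37, adjusted p = 0.000213). Creb3l3, a membrane-bound activator of lipid genes (log2 difference 4.21, SE 0.46, adjusted p = 0.00151), Hnf4g, a nuclear receptor of enterocytes (log2 difference 2.65, SE 0.50, adjusted p = 0.0202), and Maf, a leucine zipper factor (log2 difference 2.59, SE 0.44, adjusted p = 0.0131), rose too, and the 4 higher calls became 2 without Ileum library 2 or Colon library 1. Foxd2, a forkhead factor, read 0.24, 0.371 and 0.558 FPKM in ileum and 30.9, 22.2 and 22.3 FPKM in colon libraries (log2 difference -4.85, SE 0.35, adjusted p = 0.000215).

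Goblet cells make mucus in both tissues. Of 16 goblet cell genes tested 1 fell, none rose, and the median was -0.68. In the alternatives 0 to 6 fell and 0 to 2 rose. In KO mice 11 of 16 were lower in the ileum and 1 was higher. Retnlb, a resistin-like goblet cell product that acts on bacteria, read 19.9, 5.42 and 23.7 FPKM in ileum and 64.1, 281 and 231 FPKM in colon libraries (log2 difference -3.50, SE 0.70, adjusted p = 0.0272); the call was lost in 6 of 19 alternatives. Muc2, the gel-forming mucin, read 262, 211 and 283 FPKM in ileum and 1472, 502 and 842 FPKM in colon libraries without passing (log2 difference -1.77, SE 0.44, adjusted p = 0.0698), and passed in 7 of 19 alternatives. Spink4, of the same list, leaned the other way without passing (log2 difference 1.55, SE 0.39, adjusted p = 0.0692). It read 2964, 4101 and 3732 FPKM in ileum and 886, 1169 and 1727 FPKM in colon libraries. Of the 16 goblet cell differences 5 lay above 0 and 11 below. Of 18 stem cell and Wnt target genes Axin2, a feedback inhibitor of Wnt signalling, rose (log2 difference 1.70, SE 0.35, adjusted p = 0.0329), a call lost in 8 of 19 alternatives; Lgr5, the stem cell receptor, did not pass (log2 1.01, SE 0.50). None of 9 tuft cell, 20 cell cycle, 21 cholesterol biosynthesis, 14 clock, 16 interferon-stimulated or 15 stress genes passed. Of 12 retinoid genes Rbp2, the cellular retinol carrier of enterocytes, rose (log2 difference 4.37, SE 0.69, adjusted p = 0.00932) and Adh1, an alcohol dehydrogenase, fell (log2 difference -2.47, SE 0.49, adjusted p = 0.0254). Rbp2 lost its call without Ileum library 2, and Adh1 without Ileum library 1 or 2 or Colon library 1.

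Antigen presentation and lymphocyte genes gave calls in 1 direction. Of 9 MHC class II genes tested 6 rose, none fell, and the median was 2.90. Cd74, the invariant chain, read 3813, 2578 and 1975 FPKM in ileum and 392, 405 and 203 FPKM in colon libraries (log2 difference 3.08, SE 0.43, adjusted p = 0.00500), and the chains H2-Aa and H2-Ab1 had log2 differences of 3.02 and 2.99 (adjusted p = 0.00166 and 0.0101). Without Ileum library 2 the 6 calls became 3. Of 18 lymphocyte genes 9 rose, none fell, and all 18 differences lay above 0, with a median of 1.78. Cd3e, a chain of the T cell receptor complex, read 18.9, 15.2 and 12.6 FPKM in ileum and 3.92, 1.42 and 2.04 FPKM in colon libraries (log2 difference 2.51, SE 0.41, adjusted p = 0.0104). Gzma and Gzmb, granzymes of cytotoxic lymphocytes, had log2 differences of 3.73 and 3.36 (adjusted p = 0.00718 and 0.0141). The count for lymphocytes rested on the libraries: it was 1 without Ileum library 2, 3 without Colon library 2, 4 without Colon library 4, 5 without Ileum library 4, and 6 without Ileum or Colon library 1. The summed level of the list was 836, 1640.2 and 1765 FPKM in ileum and 340.4, 619 and 293 FPKM in colon libraries. In KO mice alone 19 of 20 lymphocyte and 10 of 10 MHC class II genes tested were higher in the ileum. The counts in uninjected mice alone were 12 of 20 and 8 of 10, and no gene of either list was lower in these mice. In tissue RNA, more cells of a type and more RNA per cell cannot be told apart. Of 17 myeloid, 15 fibroblast, 10 endothelial, 6 adipocyte and 2 red blood cell genes none passed, and of 9 genes of enteric neurons and glia only Gfap, an intermediate filament of glia, fell (log2 difference -1.74, SE 0.39, adjusted p = 0.0466), a call lost in 10 of 18 alternatives.

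Whether the tissue difference was particular to treated mice was asked by setting it against the same difference in KO and in uninjected mice. Of the 346 genes higher in the ileum of treated mice 341 (98.6%) were also called higher in the ileum of KO mice, and 168 of the 178 lower genes (94.4%) were called lower there; these were 16.8 and 8.33% of the 2031 and 2018 such calls in KO mice, where 4049 of 12335 genes (32.8%) passed in 4 against 4 libraries. No gene called in treated mice was called in the opposite direction in KO mice. In uninjected mice 301 of the 346 (87.0%) and 137 of the 178 (77.0%) were called in the same direction, 64.0 and 63.7% of the calls made there, where 685 of 12388 genes passed (5.53%). None was called in the opposite direction. The treated, KO and uninjected comparisons share no library.

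The difference between tissue differences, tested in 1 fit of 14 libraries, passed for 1 of 12435 genes (0.00804%) against KO mice. An unadjusted p under 0.05 was reached by 451 genes, fewer than chance alone gives at that threshold. Genes that did not pass are therefore not shown to have alike tissue differences. The gene that passed was Trpv6. In KO mice it read 0.153, 0.115, 0.162 and 0.185 FPKM in the ileum and 0.192, 0.673, 0.0883 and 0.567 FPKM in the colon, so that all 8 libraries lay under 1 FPKM. Its tissue difference was -7.05 in treated mice and -0.37 in KO mice, and the treated difference minus that of KO was -6.67 on the log2 scale (SE 0.54, adjusted p = 8.69e-05). The call was kept in every alternative run. S100g read 26.0, 26.6, 35.2 and 22.7 FPKM in the ileum and 44.6, 51.4, 96.96 and 51.8 FPKM in the colon of KO mice. Its tissue difference was -3.88 in treated mice and -1.08 in KO mice, the second passing in KO mice alone (adjusted p = 0.00812), and the difference between the tissue differences did not pass (-2.80, SE 0.61, adjusted p = 0.325). Slc37a2 in KO mice read 0.744, 0.926, 5.33 and 2.00 FPKM in the ileum and 48.0, 45.6, 32.1 and 43.2 FPKM in the colon, with a tissue difference of -4.23 beside -4.52 in treated mice. Cyp24a1 was listed at 0 in 7 of the 8 KO libraries and at 0.0136 FPKM in the other, and in treated mice it was above 4 FPKM in every library of both tissues.

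Other named genes leaned apart without passing the test against KO. Cyp2c55 had a tissue difference of -6.62 in treated and -3.30 in KO mice, with 115, 123, 154 and 141 FPKM in KO ileum (adjusted p of the difference 0.191). Retnlb had -3.51 in treated and -7.68 in KO mice, with 2348, 1475, 1919.7 and 1308 FPKM in KO colon (adjusted p = 0.21). Slc34a2 had 2.87 in treated and 5.05 in KO mice (adjusted p = 0.191), and Maf 2.58 and 4.74 (adjusted p = 0.21). In uninjected mice fitted alone, the tissue differences were -5.71 for Cyp2c55, -4.67 for Retnlb, 3.27 for Slc34a2 and 3.61 for Maf. Each lay between the values of treated and KO mice, so the lean is not particular to injected mice. These 4 were picked after their values were seen.

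Against uninjected transgenic mice, no gene of 12399 passed limma's test (0 calls, 0%), and 29 had an unadjusted p under 0.05. A count of 29 is far fewer than chance alone gives at that threshold. The absence of calls therefore does not show that the tissue differences were alike. Trpv6 read 1.73, 2.38 and 0.113 FPKM in the ileum and 348, 122, 210.3 and 69.2 FPKM in the colon of uninjected mice. Its tissue difference was -7.02 in treated and -6.65 in uninjected mice, and the difference between them was -0.37 (SE 0.93), with a 95% interval from -2.38 to 1.64. S100g read 5835, 4129 and 487 FPKM in the ileum and 5277, 1779, 24269 and 2917 FPKM in the colon of uninjected mice, where the tissues overlapped. Its tissue difference was -3.88 in treated and -1.16 in uninjected mice, and the test of the difference gave -2.72 (SE 1.39, unadjusted p = 0.0719). Cyp24a1 read 0.189, 0.533 and 0.00832 FPKM in the ileum and 0, 0.261, 1.07 and 0.026 FPKM in the colon of uninjected mice, at most 1.07 FPKM in any library.

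**Figure D5:**
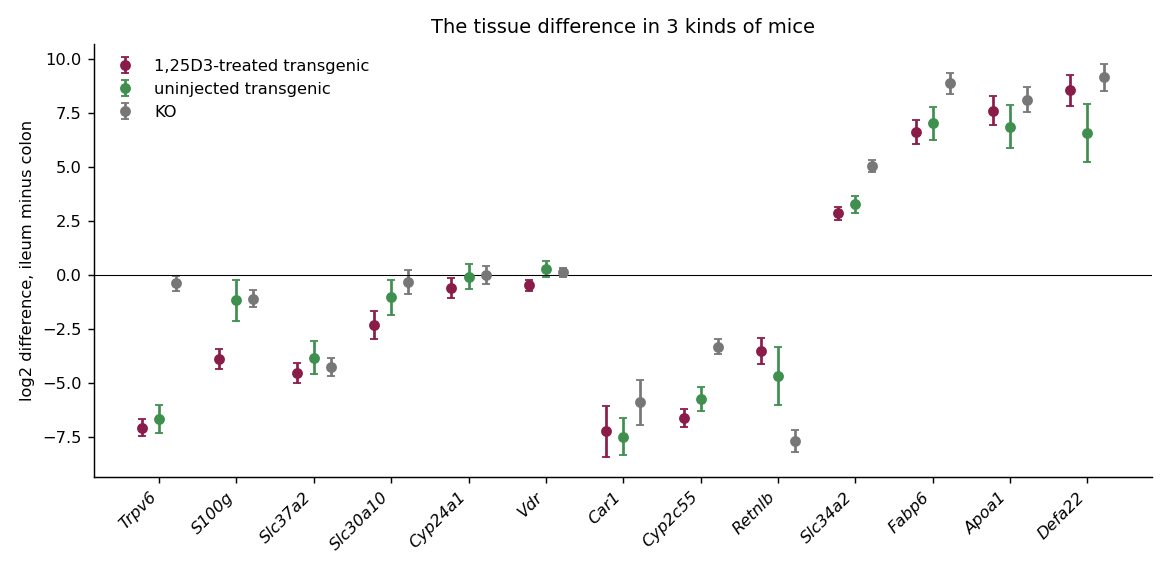
Log2 difference, ileum minus colon, with SE bars, for 13 genes in treated, uninjected and KO mice (treated and KO values from the fit of 14 libraries, uninjected values from the fit of 13). Trpv6 lies at -7.05 in treated, -6.65 in uninjected and -0.37 in KO mice, while Slc37a2, Apoa1 and Defa22 keep their side in the 3 kinds of mice.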

How the data were processed

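RNA-seq of poly(A) RNA was analysed from the deposited tables. The deposited values are FPKM per gene, which the authors made, and per the labels' protocols CLC Genomics Workbench was used; the submitters' processing notes list kallisto 0.45.0, DESeq2, DESeq 1.14.0 and the build mm9, without their roles. How genes with shared reads were counted is not given in the sources used here. Columns name a tissue, treatment and number, so libraries were tied to groups, not to single samples. The ileum and colon tables were joined on 21441 symbols per table, of which 25 had been turned into dates and were not removed. Values were rescaled by median-of-ratios factors over 14620 genes (0.904 to 0.920 for ileum, 1.09 to 1.11 for colon). Because tissue and table coincide, a difference between the tables' processing and a tissue difference cannot be told apart. Genes averaging 1 FPKM or more were tested on log2(FPKM + 0.5) with limma 3.58.1 (R 4.3.3; intensity trend, Benjamini-Hochberg adjustment, threshold 0.05), and single values with an exact two-sided permutation test. Differences between tissue differences were fitted over 14 libraries (KO) and 13 libraries (uninjected). The scripts were tested on simulated data.

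Whole reads were recovered from the FPKM steps for 14847 of 18622 genes (79.7%, tolerance 0.01), which gave the depths and a voom alternative. GC content was known for 97.05% of tested genes. Labels do not say that replicates came from separate animals, so the spread behind the p-values may be technical. Members and gene lists (42 lists, 724 entries, 706 in the tables) were chosen with earlier results of these data known. Genes named are the qPCR panel of the protocol and Vdr, the 15 largest differences each way that passed, did not overlap and reached 20 FPKM, at most 5 members per list, by smallest p, Hox and defensin family members, and defining markers. Promoter sequences came from RefSeq (GRCm38.p6), which is not the build of the deposited tables. Alternatives covered pseudocount, filter, scaling, trend, fit, replicate block and libraries left out. A result that the rule for named genes covers is not reported here.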

Additional observations from a re-analysis of the deposited data

Results flagged for a closer look

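The difference between the tissue differences of treated and KO mice passed limma's test for Trpv6, at -6.67 on the log2 scale. Among 4 libraries of a group, a single library lay far from the other 3 in 4 of the 30 gene and group pairs examined. For normally distributed values chance marks about 1 in 20. That rate was not measured for FPKM, whose spread can be skewed, so the 4 marks are not weighed against it. The genes examined were the qPCR panel, Vdr, Cyp2c55, Slc34a2, Retnlb and Maf, the last 4 picked after their values were seen. S100g read 96.96 FPKM in Colon library 3 of KO mice, and the other 3 lay between 44.58 and 51.8 FPKM. S100g read 24269.1 FPKM in Colon library 3 of uninjected mice, and the other 3 lay between 1779 and 5277 FPKM. Slc37a2 read 151.1 FPKM in Colon library 1 of uninjected mice, and the other 3 lay between 7.621 and 21.21 FPKM. Cyp24a1 read 0.01358 FPKM in Ileum library 4 of KO mice and was listed at 0 in the other 3. Beside 3 values of 0 any value above 0 is marked, so this mark carries no weight. The groups of treated mice hold 3 libraries each and were not examined in this way.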

How the results depend on the processing

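No gene called between ileum and colon of treated mice changed direction in any alternative. The count of 524 (346 higher, 178 lower) became 812 with the replicate block (512 higher, 300 lower), 1506 with all 14 libraries in 1 fit (857 higher, 649 lower) and, chosen after the data were seen, 985 with GC and length trends removed (595 higher, 390 lower); the cause was not tested. Leaving out 1 library gave 237 to 555 calls, 166 to 363 higher and 71 to 192 lower. Against KO mice, 6 genes passed with no filter on low values, 3 with the replicate block and 1 to 4 with 1 library left out; against uninjected mice 0 or 1 passed with 1 library left out. The libraries were not taken as pairs, since same-numbered deviations correlated at 0.22, 0.04 and 0.60, not all over 0.1. Ileum libraries 2 and 4 correlated best with their own number and Ileum library 1 with Colon library 2 (0.35); the block kept all 524 calls, and whether numbers mark an animal is not given.

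Differences near 0 changed sign. The log2 difference of Cyp24a1 lay between -1.06 and 0.023 with 1 library left out. That of Acta2 was -0.12 on FPKM as deposited, -0.20 with quantile normalization, and lay between -0.30 and 0.60 with 1 library left out. Against KO mice, the difference for Slc37a2 was 0.29 with the replicate block, and lay between -0.58 and 0.16 with 1 library left out. Against uninjected mice with the replicate block it was 0.51 for Slc37a2 and 0.67 for Trpv6, and with 1 library left out it lay between -1.06 and 0.068 for Trpv6 and between -0.99 and 0.082 for Cyp24a1. With 3 libraries per tissue, effects of a few-fold often missed the threshold, and FPKM of near-identical genes are uncertain.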
